A study of Rattus norvegicus with 69 samples.

Results

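Apcdd1 and 7 further genes of the Wnt pathway, namely Axin2, Rnf43, Znrf3, Nkd1, Lgr5, Tbx3 and Dkk2, were examined in rat liver RNA. All 8 were found by symbol among the 38513 genes of the count table. They had been chosen by their CPM and log2 fold changes between RYGB and the control groups, which were already known, so for comparisons with RYGB, sham, BWM or Lean their values are given as a description, without a p-value. The livers came from adult male Wistar rats, and in the groups the study describes obesity had been induced by a high-fat diet. RYGB (Roux-en-Y gastric bypass, n = 14) is surgery that leads food past most of the stomach and the upper small intestine, and sham (n = 12) is the operated control. The drug groups received liraglutide, an agonist of the GLP-1 receptor, by injection together with PYY3-36, a gut hormone, by minipump (liraglutide+PYY3-36, n = 11), PYY3-36 alone (n = 5), liraglutide alone (n = 5), or saline by both routes (n = 8). During treatment these rats chose freely between high-fat and low-fat chow, and livers were taken after a night without food. The groups labelled BWM (n = 8) and Lean (n = 6) are named here by their labels only. Some animals of the combination and saline groups were fed for longer, and the labels do not say which. Batch A, 1 of the 2 batches that the labels give, holds 6 combination and 3 saline livers, as many as were fed for longer in each group, so that longer feeding and batch cannot be told apart there.

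Wnt proteins bind Frizzled receptors and their co-receptors Lrp5 and Lrp6, and this keeps β-catenin from being degraded, so that it enters the nucleus and acts with TCF/LEF factors. Many target genes feed back on the pathway. Axin2 is a scaffold of the complex that degrades β-catenin, Rnf43 and Znrf3 are ubiquitin ligases that remove Frizzled receptors from the cell surface, Nkd1 binds Dishevelled, and Apcdd1 is a membrane protein that binds Wnt and restrains it. Lgr5 is a receptor for R-spondins, which counteract Rnf43 and Znrf3, Tbx3 is a transcription factor, and Dkk2 is a secreted protein of the Dickkopf family that binds Lrp5 and Lrp6. In the liver, Wnt from the endothelium of the central vein maintains the gene programme of the surrounding pericentral hepatocytes, which includes glutamine synthetase (Glul) and Cyp1a2.

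The promoters of 4 of the 8 genes could be read from RefSeq (build GRCr8, 250 bases before to 50 bases after the start). They are shown with the TCF/LEF motif marked. The list is one of Wnt target genes, so the motif is not independent of the choice of the genes. Capitals mark TCAAAG, the core letters of the motif, on either strand (CTTTGA in the printed direction). The promoters lie at chr18:58655446-58655745 (+ strand, Apcdd1), chr10:94398535-94398834 (+ strand, Axin2), chr19:34722797-34723096 (- strand, Nkd1) and chr10:72963116-72963415 (+ strand, Rnf43).
Apcdd1: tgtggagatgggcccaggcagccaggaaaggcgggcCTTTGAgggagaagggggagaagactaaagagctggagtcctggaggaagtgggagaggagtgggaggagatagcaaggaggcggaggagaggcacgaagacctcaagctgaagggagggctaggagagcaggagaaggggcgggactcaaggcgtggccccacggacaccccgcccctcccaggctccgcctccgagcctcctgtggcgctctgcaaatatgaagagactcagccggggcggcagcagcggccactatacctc
Axin2: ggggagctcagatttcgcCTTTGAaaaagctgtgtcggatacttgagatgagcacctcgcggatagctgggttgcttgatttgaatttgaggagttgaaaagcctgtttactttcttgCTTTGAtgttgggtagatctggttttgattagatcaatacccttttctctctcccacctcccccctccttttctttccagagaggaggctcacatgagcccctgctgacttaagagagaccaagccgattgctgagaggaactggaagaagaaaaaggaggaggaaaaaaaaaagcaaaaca
Nkd1: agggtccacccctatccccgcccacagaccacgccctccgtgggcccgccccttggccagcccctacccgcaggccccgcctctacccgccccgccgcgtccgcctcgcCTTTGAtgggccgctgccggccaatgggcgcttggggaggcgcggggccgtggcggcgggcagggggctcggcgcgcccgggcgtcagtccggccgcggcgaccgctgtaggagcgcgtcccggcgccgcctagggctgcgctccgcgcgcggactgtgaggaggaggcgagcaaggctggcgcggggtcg
Rnf43: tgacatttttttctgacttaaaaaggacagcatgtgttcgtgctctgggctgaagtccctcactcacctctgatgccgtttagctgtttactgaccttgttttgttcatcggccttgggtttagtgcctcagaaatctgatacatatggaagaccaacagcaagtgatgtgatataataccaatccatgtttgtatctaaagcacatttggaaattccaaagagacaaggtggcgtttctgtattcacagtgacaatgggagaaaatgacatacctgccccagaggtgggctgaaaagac
The match lay 214 bases upstream of the start in Apcdd1 and 141 bases upstream in Nkd1, and Axin2 had matches 232 and 132 bases upstream. Rnf43 had none in this window. Of all 33469 promoters of the same length, 5384 (16.1%) held the 6 letters, so that a match is frequent, and it is not shown to be a bound site. Lgr5, Tbx3, Znrf3 and Dkk2 are named only.

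The libraries held 9110860 to 27559144 counts (median 21027325), and values are given as CPM, counts scaled to library size with TMM normalisation. The labels put 41 libraries in batch A and 28 in batch B. BWM and Lean lay in batch A alone, PYY3-36 and liraglutide in batch B alone, and the other groups in both. On the first principal component all batch B libraries (11.1 to 158.9) lay above all batch A libraries (-57.7 to -3.39). Of these, 6 batch B libraries (sham 12, PYY3-36 5, liraglutide 4, and liraglutide+PYY3-36 8, 9 and 11) lay farthest out, at 112.0 or above, while the other 22 reached 80.0. With group held constant, 60.6% of the 16676 genes tested differed between the batches (edgeR, adjusted p under 0.05). Hepatocyte markers were detected throughout, with a median summed level between 111100 and 143000 CPM in the 8 groups, and all 6 of them were present.

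Per kilobase of combined exon length, the median level over the 69 libraries was highest for Tbx3 (2.34 CPM per kb) and Axin2 (1.41 CPM per kb). Nkd1 (0.696), Rnf43 (0.596) and Apcdd1 (0.594 CPM per kb) lay close together. Dkk2 (0.257), Znrf3 (0.253) and Lgr5 (0.145 CPM per kb) were the lowest. The median raw count was 15 for Dkk2, 14 for Znrf3 and 15 for Lgr5, and Znrf3 had no count in 7 libraries, all of batch B. In the deposited table (build Rnor_6.0) Apcdd1 lies on chromosome 18 from 58270398 to 58300982, Axin2 on chromosome 10 from 97212483 to 97238824, Rnf43 on chromosome 10 from 74956411 to 75028951 and Nkd1 on chromosome 19 from 19434720 to 19509087. Znrf3 lies on chromosome 14 from 85527099 to 85586294, Lgr5 on chromosome 7 from 58447097 to 58587787, Tbx3 on chromosome 12 from 42479518 to 42494588 and Dkk2 on chromosome 2 from 237148918 to 237240883. Each value sums all exons of the gene. Statements on Dkk2, Znrf3 and Lgr5 rest on few reads. All 8 genes passed the filter on low counts.

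Apcdd1 was high in RYGB livers and low in all other groups. In RYGB the lowest library had 2.33, the median 12.7 and the highest 25.2 CPM (12.3 ± 6.67, mean ± SD, n = 14). In sham the corresponding levels were 0.292, 1.97 and 3.80 CPM (2.10 ± 1.03, n = 12). Thus 12 of 14 RYGB libraries lay above every sham library, and the ranges met only through RYGB 2 (2.33 CPM) and RYGB 14 (2.55 CPM). BWM ran from 0.804 over a median of 1.94 to 3.17 CPM (n = 8), and Lean from 0.515 over 0.996 to 3.37 CPM (n = 6). Likewise 12 of 14 RYGB libraries exceeded all BWM libraries, and 12 exceeded all Lean libraries.

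The drug groups stayed near the controls. Liraglutide+PYY3-36 had 0.954, 1.69 and 4.72 CPM of Apcdd1 as lowest, median and highest value (n = 11), and saline had 0.420, 1.06 and 6.20 CPM (n = 8). The PYY3-36 livers had 1.77, 1.37, 1.83, 1.43 and 1.48 CPM, and the liraglutide livers 0.943, 2.22, 1.27, 1.26 and 1.302 CPM. All of these lay within the range of all saline livers, whose highest value came from saline 4 of batch A alone, with the next at 2.03 CPM. Within batch B, 1 liraglutide liver (2.22 CPM) and 1 combination liver (2.33 CPM) lay above all 5 saline livers (0.420 to 2.03 CPM). Ordered by mean, RYGB (12.3 CPM) was followed by liraglutide+PYY3-36 (2.18), sham (2.10), BWM (2.05), saline (1.66), PYY3-36 (1.58), Lean (1.48) and liraglutide (1.40 CPM). Of the 7 steps in this order only the first, of 10.1 CPM, was larger than the larger SD of the neighbours. The order pools batches that hold different shares of the groups, and within batch B alone the means were 1.58 CPM for PYY3-36, 1.40 for liraglutide, 1.36 for the combination and 0.967 CPM for saline, so that saline was lowest there.

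With batch in the model, the log2 fold change of Apcdd1 was 2.31 ± 0.32 (SE) in RYGB versus sham, 2.74 ± 0.37 versus BWM and 3.21 ± 0.43 versus Lean. It was 2.47 within batch A (11 against 7 libraries) and 2.06 within batch B (3 against 5 libraries). Without the 6 libraries that lay apart it was 2.26, and leaving out single libraries kept it between 2.198 and 2.416. BWM (-0.42 ± 0.37) and Lean (-0.90 ± 0.41) were not above sham on this scale. In these tissue samples more cells that express a gene cannot be told apart from more RNA per cell.

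**Figure D1:**
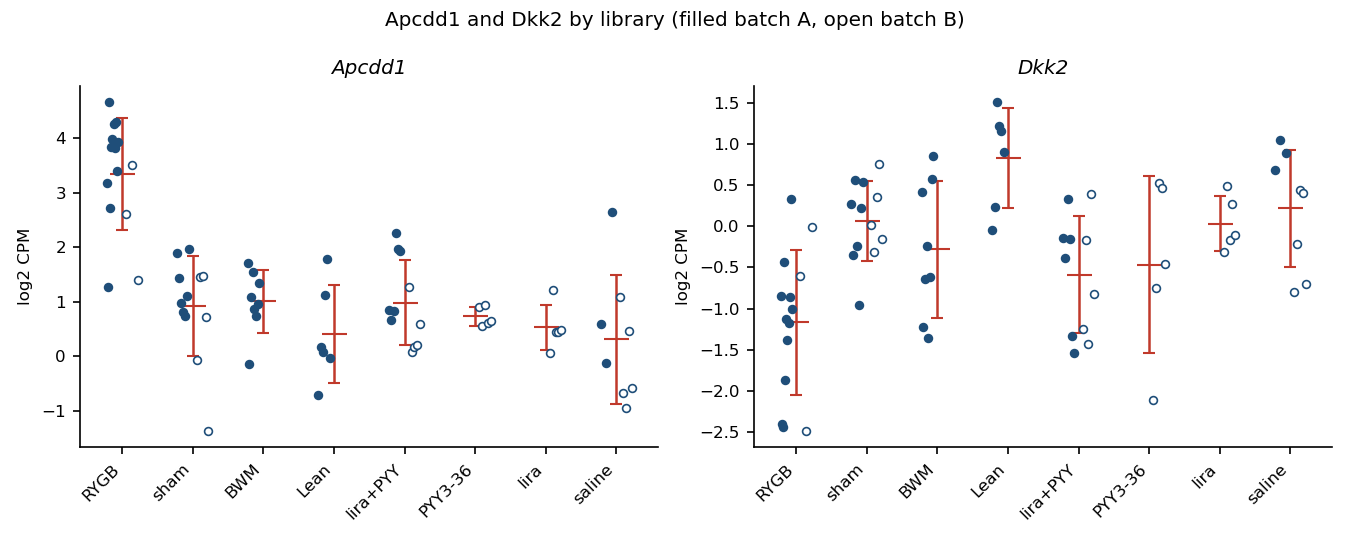
Level of Apcdd1 (left) and Dkk2 (right) as log2 CPM in each of the 69 libraries by group; filled points are batch A, open points batch B, and red bars show mean ± SD. For Apcdd1 12 of 14 RYGB libraries sit above all sham libraries, and for Dkk2 8 of 14 RYGB libraries sit below all sham libraries.

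Dkk2 ran the other way. RYGB livers had 0.083, 0.383 and 1.16 CPM as lowest, median and highest value (0.430 ± 0.312, n = 14), and sham livers 0.419, 0.990 and 1.59 CPM (0.998 ± 0.344, n = 12). In 8 of 14 RYGB libraries Dkk2 was below every sham library, and none exceeded the highest sham library. Lean livers were the highest of all, with 0.876, 1.95 and 2.74 CPM (1.80 ± 0.714, n = 6), and 12 of 14 RYGB libraries lay below all of them. BWM livers (0.294, 0.653 and 1.71 CPM, n = 8) overlapped with both. The log2 fold change was -1.26 ± 0.32 in RYGB versus sham, -0.97 ± 0.35 versus BWM and -2.03 ± 0.36 versus Lean. It was -1.25 within batch A and -0.99 within batch B for RYGB versus sham. In the order of mean levels no neighbouring groups differed by more than the larger of their SDs.

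In RYGB versus sham 2 of the 8 genes, Apcdd1 higher and Dkk2 lower, had an adjusted p under 0.05, beside 3.12% of all genes tested (1.54% higher and 1.58% lower). In RYGB versus Lean these were the same 2 genes (3.88% of all genes, 1.6% higher and 2.28% lower), and in RYGB versus BWM Apcdd1 alone (1.27%, with 0.768% higher and 0.504% lower). In BWM versus sham (0.042%) and Lean versus sham (0.612%) there were 0, with 530 and 1013 genes at an unadjusted p under 0.05 in edgeR, and 0 of the 8 with DESeq2 and limma-voom too. Since these contrasts were known when the genes were listed, nothing is read from the counts. The comparisons with sham share the 12 sham libraries and those of RYGB the 14 RYGB libraries.

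The feedback genes Axin2, Rnf43, Znrf3 and Nkd1 had higher means in RYGB than in sham, but with wide overlap. Axin2 had 2.90, 5.83 and 10.2 CPM in RYGB and 1.75, 4.15 and 5.92 CPM in sham (lowest, median, highest), and 6 of 14 RYGB libraries lay above all sham libraries. All 6 were from batch A, where the log2 fold change was 0.60, while it was -0.01 in batch B and 0.33 ± 0.30 in all libraries. Rnf43 had 3.57, 7.17 and 10.9 CPM in RYGB and 2.19, 4.21 and 9.16 CPM in sham, with a log2 fold change of 0.36 ± 0.24. Nkd1 had 1.57, 3.80 and 5.22 CPM in RYGB and 1.75, 2.66 and 4.199 CPM in sham, with 0.39 ± 0.17. For both, batch A (0.51 and 0.45) and batch B (0.30 and 0.45) gave the same sign.

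Znrf3 showed the strongest dependence on batch. In batch A it had 1.39 ± 0.542 CPM in RYGB (n = 11) and 0.782 ± 0.266 CPM in sham (n = 7), and in batch B 0.093 ± 0.161 CPM (n = 3) and 0.110 ± 0.104 CPM (n = 5). The log2 fold change between RYGB and sham was 0.66 ± 0.32 in all libraries and 0.81 in batch A. In batch B the gene did not pass the filter on low counts. For RYGB versus Lean, a group of batch A alone, the log2 fold change was 1.08 ± 0.36 for Znrf3, 0.80 ± 0.30 for Rnf43, 0.72 ± 0.37 for Axin2 and 0.23 ± 0.21 for Nkd1.

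Lgr5 and Tbx3 did not separate RYGB from sham. Lgr5 had 0.047, 0.746 and 1.33 CPM in RYGB and 0.178, 0.917 and 1.90 CPM in sham, with a log2 fold change of -0.23 ± 0.31 that was 0.13 in batch A and -0.67 in batch B. Tbx3 had 10.1, 13.3 and 26.2 CPM in RYGB and 6.55, 10.6 and 31.4 CPM in sham, with 0.10 ± 0.26, and also changed sign between batch A (0.36) and batch B (-0.20). Both had their lowest mean in Lean, at 0.460 ± 0.174 CPM for Lgr5 and 7.84 ± 4.15 CPM for Tbx3 (n = 6). The log2 fold change of Lean versus sham was -0.96 ± 0.43 for Lgr5 and -0.68 ± 0.35 for Tbx3. For these 2 genes, as for Axin2, Rnf43, Znrf3 and Nkd1, no neighbouring groups in the order of means differed by more than the larger of their SDs.

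**Figure D2:**
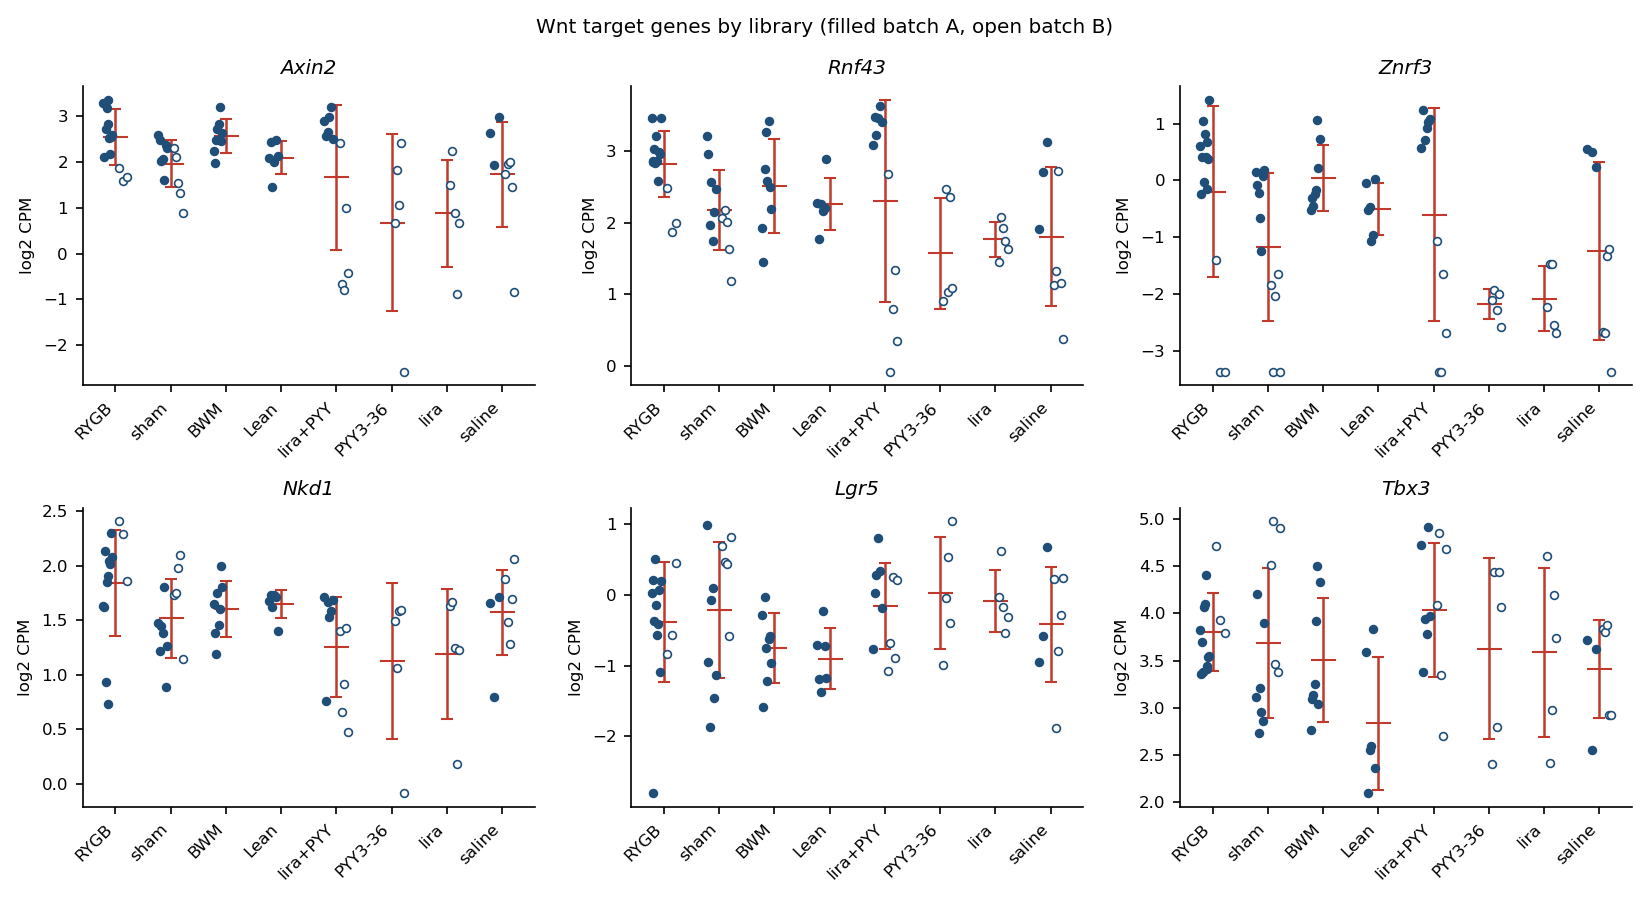
Levels of Axin2, Rnf43, Znrf3, Nkd1, Lgr5 and Tbx3 as log2 CPM in each of the 69 libraries by group; filled points are batch A, open points batch B, and red bars show mean ± SD. Axin2, Rnf43 and Znrf3 are lower in batch B, and Znrf3 has no count in 7 batch B libraries.

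The batches differed in 4 of the 8 genes, in a test of the batch term that was added after the data had been seen. Batch B was below batch A, with a log2 difference of -3.27 ± 0.29 for Znrf3 (edgeR, adjusted p = 4.39e-15), -1.19 ± 0.20 for Rnf43 (adjusted p = 4.66e-07), -1.16 ± 0.25 for Axin2 (adjusted p = 4.68e-05) and -1.02 ± 0.25 for Apcdd1 (adjusted p = 0.000307). Among all genes 60.6% differed, with 26.9% lower and 33.7% higher in batch B. The count of 4 of 8 is thus no higher than the share of all genes, and nothing particular to these genes is read from it. Tbx3 (0.43 ± 0.21, adjusted p = 0.0668), Dkk2 (-0.16 ± 0.25), Nkd1 (0.14 ± 0.14) and Lgr5 (0.06 ± 0.25) did not pass the test. PYY3-36 and liraglutide livers, all from batch B, had 0.127 ± 0.038 and 0.155 ± 0.101 CPM of Znrf3 (n = 5 each), like the 5 saline livers of batch B (0.151 ± 0.155 CPM) and unlike the 3 of batch A (1.26 ± 0.148 CPM).

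The drug groups were tested against saline. The rule for the list covers the CPM of these groups too and does not name a contrast. It is thus not known whether these comparisons also entered the choice of the genes, and the p-values may not be independent of it. In liraglutide+PYY3-36 versus saline 0 of 8 genes passed the test (edgeR, 0.006% of all genes passed and 1820 had an unadjusted p under 0.05). The largest differences were those of Dkk2 (log2 fold change -0.89 ± 0.36, adjusted p = 0.454) and Tbx3 (0.79 ± 0.31, adjusted p = 0.454). Dkk2 had 0.248, 0.672 and 1.22 CPM in the combination group and 0.477, 1.25 and 1.97 CPM in saline, and in batch A all 6 combination livers were below all 3 saline livers. With limma-voom the log2 fold change of Dkk2 was -1.45 (adjusted p = 0.0424), and it was 1 of 20 genes called there. DESeq2 called 3 genes in all and 0 of the 8. Znrf3 also had no overlap in batch A, where the 6 combination livers ran from 1.39 to 2.26 and the 3 saline livers from 1.09 to 1.37 CPM, while its log2 fold change was 0.33 ± 0.39 (adjusted p = 0.723). For Dkk2 and Znrf3 alike, the part of the longer feeding in the separation within batch A was not tested. How many of all genes separate there in the same way was not counted, so nothing is read from the lack of overlap. In batch B the combination and saline livers overlapped in both genes. Fitted in each batch alone, Dkk2 differed on the log2 scale by -1.40 in batch A and by -0.44 in batch B. For Apcdd1 the log2 fold change was 0.28 (95% interval -0.45 to 1.01, adjusted p = 0.752), and without saline 4 it was 0.81.

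PYY3-36 alone and liraglutide alone also gave 0 of 8 genes in edgeR, DESeq2 and limma-voom. Of all genes 0% and 0.006% passed in edgeR, with 826 and 1038 at an unadjusted p under 0.05. The log2 fold change of Apcdd1 was 0.46 (95% interval -0.47 to 1.39) with PYY3-36 and 0.29 (-0.65 to 1.23) with liraglutide, and without saline 4 these were 0.87 and 0.70. The intervals leave room for an increase of more than 1 on the log2 scale. They end below the estimate for RYGB versus sham (2.31, 95% interval 1.68 to 2.95). The controls differ, however, and Apcdd1 was listed with results of that contrast known, so no difference is read from this. Nkd1 had the lowest p of the 8 genes in both, with -0.42 ± 0.25 (adjusted p = 0.947) and -0.39 ± 0.26 (adjusted p = 0.909). The 3 drug comparisons share the 8 saline libraries.

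The effect of RYGB over sham minus that of liraglutide+PYY3-36 over saline was 2.04 ± 0.47 for Apcdd1, with a 95% interval from 1.10 to 2.98. It was 1.55 without saline 4. For Nkd1 the difference was 0.65 ± 0.26, for Tbx3 -0.70 ± 0.40 and for Dkk2 -0.36 ± 0.48, the last with an interval from -1.32 to 0.59. This difference contains RYGB and sham values that were known when the genes were listed, so that it is a description only. Nothing is read from the calls, which were 0 of 8 in edgeR and 1 in DESeq2. Of all genes 0.036% passed in edgeR (0.024% higher and 0.012% lower), with 2053 at an unadjusted p under 0.05.

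**Figure D3:**
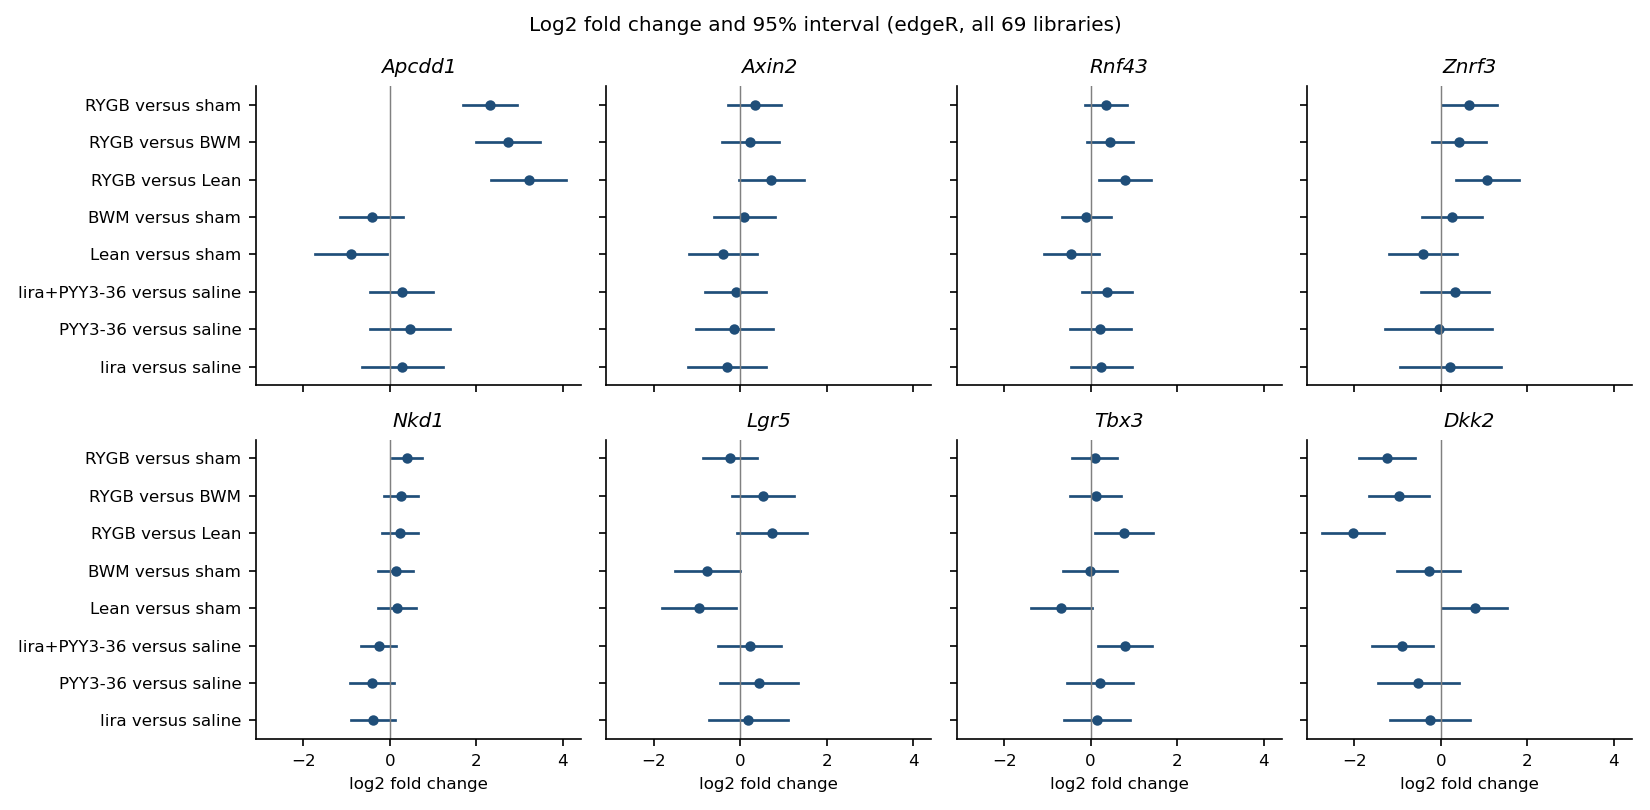
Log2 fold change (x axis) of each of the 8 genes in 8 comparisons, with points for the estimate and lines for its 95% interval from the fit of all 69 libraries. Apcdd1 lies between 2.31 and 3.21 in the RYGB comparisons and between 0.28 and 0.46 in the drug comparisons.

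Variation among livers of the same group and batch is separate from the differences between groups and was used to ask which of them vary together. After the mean of each group and batch had been removed, Axin2 was correlated with each of the other 7 genes over the 69 libraries (permutation test, two-sided, adjusted over the 7 pairs). Axin2 went with Rnf43 (Pearson r = 0.592, permutation p = 3e-05, adjusted p = 0.00021; Spearman rho = 0.531, permutation p = 7e-05, adjusted 0.00049). It went with Znrf3 (r = 0.471, permutation p = 7e-05, adjusted 0.000245; rho = 0.423, permutation p = 0.0014, adjusted 0.0049). Without the 6 libraries apart r was 0.600 for Rnf43 (adjusted permutation p = 0.00091) and 0.342 for Znrf3 (adjusted permutation p = 0.0472), while rho for Znrf3 was 0.246 and no longer passed (adjusted permutation p = 0.122). Without PYY3-36 5 and saline 9, the 2 libraries farthest from the median of Axin2, r was 0.608 for Rnf43 and 0.456 for Znrf3. Within batch A alone r was 0.423 for Rnf43 (adjusted permutation p = 0.0243) and 0.280 for Znrf3 (adjusted permutation p = 0.136), and within batch B 0.682 and 0.546 (adjusted permutation p = 0.00178 and 0.00133). Both ligases thus kept the sign in each batch, while within a single batch the relation with Znrf3 passed the test in batch B and not in batch A. In batch B, however, Znrf3 had only 0 to 7 counts per library, and 7 libraries had none. The pass in batch B thus rests on values near the floor, and no relation with Znrf3 is read from it.

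The other pairs held less well. For Apcdd1 r was 0.267 (permutation p = 0.00382, adjusted 0.00891; rho = 0.253, permutation p = 0.0377, adjusted 0.0881), with 0.491 in batch A, 0.225 in batch B, 0.313 without the 2 farthest libraries and 0.295 without the 6 libraries apart (adjusted permutation p = 0.0531). For Nkd1 r was 0.42 (permutation p = 0.0136, adjusted 0.0238; rho = 0.211, permutation p = 0.132, adjusted 0.185), and was 0.637 in batch B, -0.046 in batch A, -0.129 without the 6 libraries apart and 0.344 without the 2 farthest. For Tbx3 r was 0.125 (permutation p = 0.479, adjusted 0.558; rho = 0.274, permutation p = 0.0503, adjusted 0.0881) in all libraries, 0.189 without the 2 farthest, 0.594 in batch A (adjusted permutation p = 0.00049), -0.02 in batch B and 0.540 without the 6 libraries apart (adjusted permutation p = 0.00063). Lgr5 (r = -0.103, permutation p = 0.459, adjusted 0.558; rho = -0.028, permutation p = 0.83, adjusted 0.969) and Dkk2 (r = 0.055, permutation p = 0.729, adjusted 0.729; rho = 0.002, permutation p = 0.985, adjusted 0.985) did not pass, and without the 2 farthest libraries r was 0.102 and 0.023. Only the relation of Axin2 with Rnf43 passed the test on Pearson's r in all libraries, in each batch, without the 6 and without the 2 libraries. Its rho did not pass in batch A (0.338, adjusted permutation p = 0.0929). How many of all genes vary with Axin2 to this degree was not counted, so nothing particular to the Wnt pathway is read from these correlations.

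Among 13360 genes with a mean log2 CPM of at least 0, those most like Apcdd1 over the 69 libraries, with batch means removed, were Glul (Spearman rho = 0.816), Slc1a2 (0.728) and Cyp1a2 (0.701), followed by Fbxo21 and Fam188b (0.667 each). Glul is glutamine synthetase, Slc1a2 a glutamate transporter and Cyp1a2 a cytochrome P450, and all 3 were on the list of pericentral genes. With the group means removed as well, rho was 0.718, 0.689 and 0.578 for these 3 and 0.407 and 0.484 for Fbxo21 and Fam188b. Within batch A rho was 0.825 for Glul, 0.768 for Slc1a2 and 0.727 for Cyp1a2 (n = 41), and within batch B 0.829, 0.709 and 0.617 (n = 28). Without the 6 libraries apart these were 0.828, 0.752 and 0.745 (n = 63). The livers share groups, batches and scaling, so that rho is a description. Elovl5, an elongase of fatty acids, had the lowest value (-0.674), followed by Atp13a5 (-0.664) and the lncRNA LOC102551726 (-0.600). For the other members that passed this limit on the level, rho to Apcdd1 was 0.420 (Axin2), 0.389 (Nkd1), 0.383 (Rnf43) and 0.213 (Tbx3). The 5 genes named first were picked as the highest, so the members are not compared with them.

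Glul itself had 96.6, 473 and 823 CPM in RYGB and 185.5, 311.5 and 413 CPM in sham (lowest, median, highest). Its range in RYGB enclosed that of sham, and the lowest RYGB value came from RYGB 2, the library that was also lowest in Apcdd1 within that group. Slc1a2 had 1.59, 22.9 and 43.4 CPM in RYGB and 5.71, 14.1 and 20.1 CPM in sham. The log2 fold change of Glul was 0.58 ± 0.19 in RYGB versus sham (edgeR, adjusted p = 0.0889) and 1.07 ± 0.25 versus Lean (adjusted p = 0.00362), and that of Slc1a2 0.54 ± 0.29 (adjusted p = 0.452) and 1.43 ± 0.38 (adjusted p = 0.0157).

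**Figure D4:**
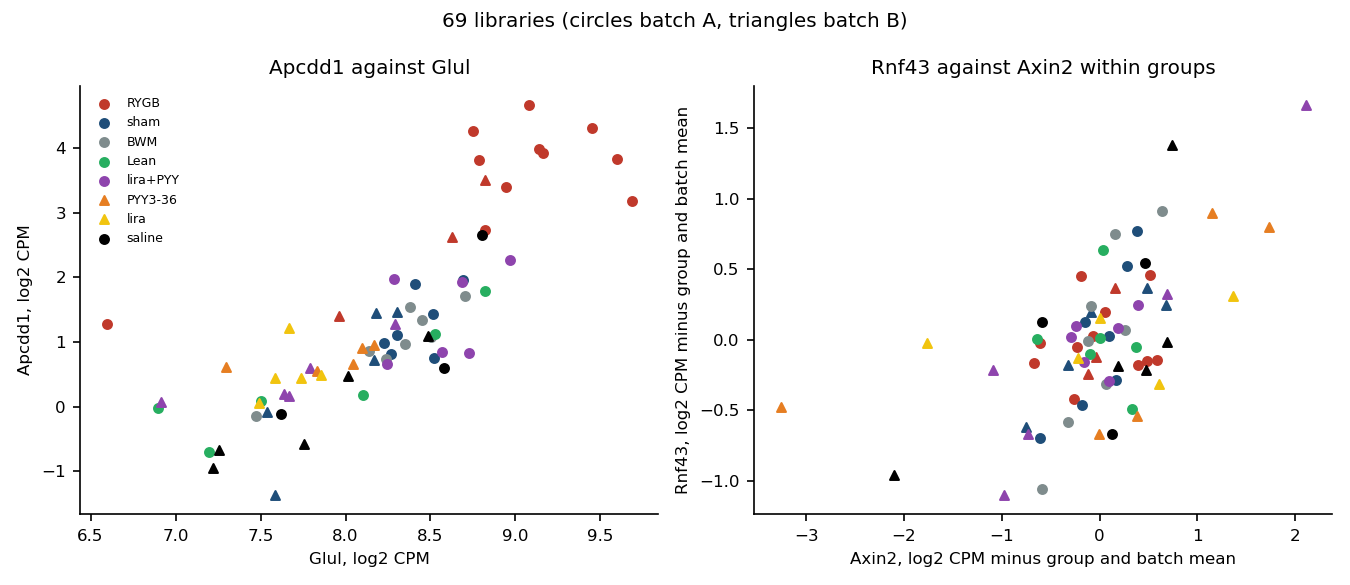
Left, Apcdd1 against Glul in log2 CPM for the 69 libraries, coloured by group. Right, Rnf43 against Axin2 after the mean of each group and batch was removed, over the same libraries; circles are batch A and triangles batch B. The left panel shows values before any mean was removed. Spearman rho of Apcdd1 and Glul was 0.816 with batch means removed and 0.718 with group means removed as well. For Axin2 and Rnf43 within groups, Pearson r was 0.592 and rho 0.531.

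The rest of the pathway was read from lists. These, and the lists of liver zones and cell markers, were drawn up with earlier results of these data known. Their p-values and counts beside the share of all genes are therefore a description. Of 25 Wnt ligands, R-spondins and factors for their release, 9 passed the filter and 0 passed the test in RYGB versus sham. Their median log2 fold change was 0.32, beside -0.005 for all genes, and the lowest p was that of Porcn (0.40 ± 0.20, adjusted p = 0.378), the enzyme that attaches lipid to Wnt. Of 18 receptors tested 0 passed, with a median of -0.07, and Ror2, a receptor for Wnt5a, was nearest (-1.33 ± 0.40, adjusted p = 0.0505). Of 6 secreted inhibitors tested 0 passed, with a median of 0.32, and Notum, which removes the lipid of Wnt, had the lowest p (0.51 ± 0.22, adjusted p = 0.262). In RYGB versus Lean Wif1, which binds Wnt outside the cell, was lower (-2.01 ± 0.49, edgeR adjusted p = 0.00656), though at 0.230 ± 0.186 CPM in RYGB (n = 14) and 0.669 ± 0.215 CPM in Lean (n = 6) it was scarce.

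Among all genes tested 1.54% rose and 1.58% fell in RYGB versus sham, so that a single call in a list of this length is near the background. Of 24 cytoplasmic components tested 1 rose, the casein kinase Csnk1e (0.59 ± 0.15, edgeR adjusted p = 0.0153), with 9.80 ± 3.27 CPM in RYGB (n = 14) and 5.94 ± 1.26 CPM in sham (n = 12). The median of this list was 0.06. Of 13 TCF/LEF factors and co-factors 1 fell, the co-repressor Tle3 (-0.97 ± 0.22, edgeR adjusted p = 0.00363), from 9.88 ± 4.08 CPM in sham (n = 12) to 4.82 ± 1.86 CPM in RYGB (n = 14), and the median was 0.08. Tle3 was also lower in RYGB versus Lean (-1.26 ± 0.25, adjusted p = 7e-04). Of 15 other target genes 0 passed in RYGB versus sham, with a median of -0.06, and Ccnd1, which encodes cyclin D1, had the lowest p (-0.76 ± 0.29, adjusted p = 0.183). In RYGB versus Lean Ccnd1 was lower (-1.16 ± 0.35, edgeR adjusted p = 0.0438).

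Pericentral genes were the list with the most genes higher after RYGB. Like all lists it was drawn up with earlier results of these data known, so its calls are a description. Log2 fold changes were above 0 for 12 and below 0 for 7 of the 19 genes tested, both versus sham and versus BWM. Of 19 tested, 5 rose and 0 fell versus sham, beside 1.54% of all genes higher, and the median log2 fold change was 0.33. They were Cyp1a2 (1.14 ± 0.27, edgeR adjusted p = 0.00665), the carboxylate transporter Slc13a3 (0.91 ± 0.23, adjusted p = 0.0138), the retinal dehydrogenase Aldh1a1 (1.09 ± 0.28, adjusted p = 0.0151), the nuclear receptor Nr1i3 (1.07 ± 0.29, adjusted p = 0.0231) and the ammonium transporter Rhbg (1.06 ± 0.29, adjusted p = 0.0249). Within batch A alone 7 of the list passed and within batch B alone 0, where 3 and 5 libraries were compared, and without the 6 libraries apart 7 passed. Versus Lean 9 rose and 0 fell, beside 1.6% of all genes higher, and the median was 0.69, with 14 log2 fold changes above 0 and 5 below. The lowest p there were those of Slc13a3 (2.14 ± 0.32, adjusted p = 4.39e-06), Rhbg (2.36 ± 0.41, adjusted p = 6.22e-05), Nr1i3 (2.21 ± 0.40, adjusted p = 0.000142) and Cyp1a2 (1.70 ± 0.36, adjusted p = 0.00152). Versus BWM 2 rose, beside 0.768% of all genes higher, Aldh1a1 (1.83 ± 0.33, adjusted p = 0.000437) and Slc13a3 (0.97 ± 0.27, adjusted p = 0.0486). In Lean versus sham Slc13a3 alone passed, in the other direction (adjusted p = 0.0459), with a median of -0.30.

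Periportal genes, which mark hepatocytes near the portal tract, did not rise. Of 26 tested, 3 fell in RYGB versus sham, beside 1.58% of all genes lower, namely Hamp (-3.43 ± 0.44, edgeR adjusted p = 2.71e-07), which encodes the iron hormone hepcidin, Igf1 (-0.98 ± 0.24, adjusted p = 0.00785) and Cyp17a1 (-1.07 ± 0.32, adjusted p = 0.0439), and the median of the list was -0.08. Versus Lean 5 fell, beside 2.28% of all genes lower, with the lowest p for Hamp (-3.36 ± 0.48, adjusted p = 1.09e-06), Sdsl (-0.67 ± 0.15, adjusted p = 0.0027), Sds (-2.11 ± 0.56, adjusted p = 0.0144) and Igf1 (-1.03 ± 0.28, adjusted p = 0.0182). Hamp was the one gene of this list that was lower versus BWM (-3.58 ± 0.46, adjusted p = 1.14e-06) and in the effect of RYGB minus that of the combination (-3.17 ± 0.65, adjusted p = 0.032). In the 3 drug comparisons 0 genes of any of these lists passed in edgeR, and the median of the pericentral list was 0.02 for liraglutide+PYY3-36, 0.13 for PYY3-36 and -0.03 for liraglutide.

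**Figure D5:**
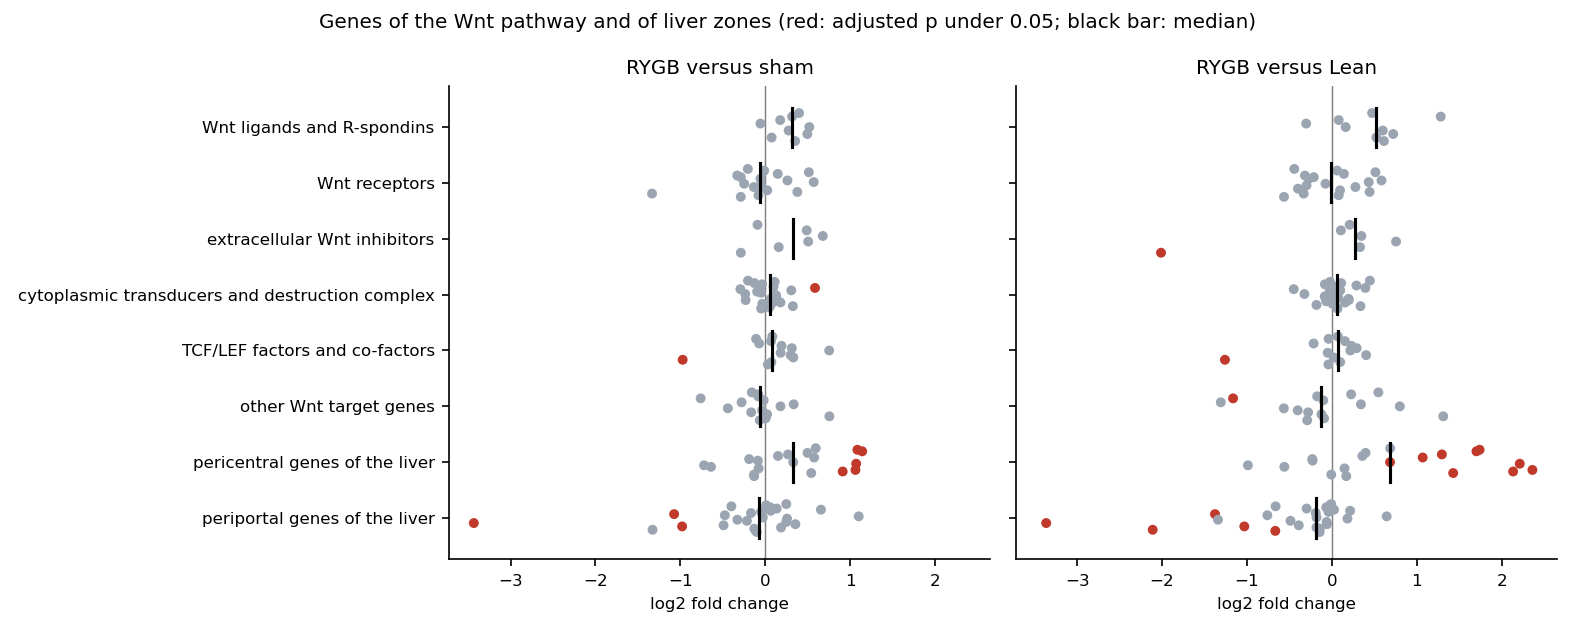
Log2 fold change (x axis) of each tested gene of 8 lists in RYGB versus sham and RYGB versus Lean; each point is a gene, red points have an adjusted p under 0.05 and black bars are medians. In the pericentral list 5 of 19 genes (versus sham) and 9 of 19 (versus Lean) are red, all on the right. Of all 19, 7 (versus sham) and 5 (versus Lean) lie below 0.

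Markers of other cells were counted beside these results. In RYGB versus sham 0 of 7 endothelial, 0 of 8 stellate, 0 of 6 cholangiocyte and 0 of 5 mesothelial markers passed, and 1 of 6 Kupffer cell markers (Vsig4, 0.61 ± 0.18, edgeR adjusted p = 0.0486) rose. The log2 fold change was above 0 for all 6 Kupffer markers (median 0.52) and below 0 for all 5 red blood cell markers (median -0.77). Their part in the results on the 8 genes and on the pericentral list was not tested. The summed Kupffer level ran from 143.5 to 503 CPM in RYGB and from 119 to 338 CPM in sham, and none of the 6 was at 0. The summed endothelial level, from cells that make Wnt in the liver, ran from 63.0 to 277 CPM in RYGB and from 85.6 to 409 CPM in sham. Of 5 pancreatic markers 2 passed the filter and Cela1 rose (0.90 ± 0.24, edgeR adjusted p = 0.0187), while Pnlip was at 0 in all RYGB and sham libraries. Markers of hepatocytes, T and NK cells, B cells, adipocytes, intestine, muscle and red blood cells gave 0 calls in that comparison. In RYGB versus Lean Krt7 and Cd5l rose and Ttr, Epcam, Fabp4 and Fabp2 fell, each the only marker of its list to pass the test in that direction. Also 2 of 5 mesothelial markers, Upk3b (2.47 ± 0.66, adjusted p = 0.0169) and Wt1 (1.80 ± 0.55, adjusted p = 0.0488), rose, with summed levels of 0.559 to 35.6 CPM in RYGB and 0.618 to 6.28 CPM in Lean. The part of these cells in the levels of Apcdd1 and Dkk2 was not tested.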

How the data were processed

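Liver poly(A) RNA of 69 rats was sequenced from stranded single-end libraries. What was deposited is a table of estimated counts, 1 value for each gene and rat, which sum fractions of reads. Per the labels' processing notes and the methods, the authors used bcl2fastq 2.20.0.422, cutadapt 2.5, STAR 2.7.2b on Rnor_6.0 and featureCounts 1.6.4 with strand. Reads that matched several genes were divided, so 15.9% of values were not whole (0% for Apcdd1, Dkk2, Znrf3 and Nkd1, 20.3% for Lgr5, 29.0% for Axin2 and Rnf43, 52.2% for Tbx3). The deposited table holds the values before the normalization that the authors applied with DESeq2. 0 columns of other samples were present.

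Counts were rounded and fitted in R 4.3.3 with edgeR 4.0.16 (filterByExpr, TMM, robust quasi-likelihood test, terms for group and batch, all 69 libraries). Adjusted p-values follow Benjamini and Hochberg over 16676 genes, with a threshold of 0.05, and log2 CPM used a prior count of 2. The test was also run on simulated counts, drawn without a batch effect and without libraries that lie apart. That run therefore does not cover these features of the data. Correlations used NumPy 2.4.6 and SciPy 1.17.1 with 100000 permutations within group and batch. Groups share replicate numbers in their titles. Of 12 same-numbered pairs tested, 4 had a correlation of deviations above 0.1, so the numbers were not taken to pair animals. p-values assume that each library is a separate rat.

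The 8 genes and all lists were chosen with earlier results of these data known. Besides the members, genes were named as every called gene of a list in a comparison (the 4 with the lowest p where more than 4 were called), the gene with the lowest p of a list with none called in RYGB versus sham, the 5 most and 3 least like Apcdd1, and cell markers by list. Rhbg in RYGB versus sham, the glutamine synthetase and Slc1a2 values, and Cela1 and Vsig4 as single markers were named after their values were seen. Axin1 and Trabd2a were not found by symbol, and Dkk1 and Gstm3 had several rows and were left out, and 1 marker is not reported here. Alternatives were DESeq2 1.42.0, limma-voom (limma 3.58.1), DESeq2 size factors, no filter, no batch term, fewer groups, each batch alone, a replicate block, a prior count of 0.5, and leaving out libraries. Sequencing depth limits Dkk2, Znrf3 and Lgr5.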

Additional observations from a re-analysis of the deposited data

Results flagged for a closer look

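Of 40 combinations of gene and group with few enough livers for Dixon's test, 2 held a value far from the others, and chance alone marks about 1 in 20. Axin2 in saline 9 was at -0.85 log2 CPM (0.459 CPM), while the other saline livers had 2.63 to 7.79 CPM (n = 8). Saline 9 also had no Znrf3 count. Nkd1 in Lean 6 was at 1.40 log2 CPM (2.54 CPM), while the other Lean livers had 2.98 to 3.23 CPM (n = 6). The causes were not tested.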

How the results depend on the processing

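Apcdd1 was higher in RYGB than in sham, BWM and Lean under every alternative that gave a value, from 2.06 (batch B alone, RYGB versus sham) to 3.64 (without Lean 5, RYGB versus Lean). The number of the 8 genes called changed as follows. In RYGB versus sham it was 2, with 3 by limma-voom, 4 in batch A alone and 0 in batch B alone. In RYGB versus BWM it was 1, with 2 by limma-voom and 2 with the replicate block. In RYGB versus Lean it was 2, with 6 by limma-voom, 5 with only the groups compared, 5 in batch A alone, 3 by DESeq2 and 3 without the 6 libraries apart. In liraglutide+PYY3-36 versus saline it was 0, with 1 by limma-voom. In the difference of the effects of RYGB and liraglutide+PYY3-36 it was 0, with 1 by DESeq2, and 0 to 1 when single libraries were left out, Apcdd1 being called without RYGB 2, RYGB 14, liraglutide+PYY3-36 4, sham 9 or sham 10.

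Signs turned for Apcdd1 without the batch term, to -0.092 with PYY3-36 and -0.26 with liraglutide. They turned for Dkk2 with liraglutide to 0.16 (only the groups compared), 0.15 (batch B alone) and 0.42 (replicate block), and with PYY3-36 to 0.046 (replicate block). In the difference of effects Dkk2 turned to 0.15 in batch A, and in sham versus saline Dkk2 turned to 0.30 in batch B and Apcdd1 to -0.20 in batch A. In RYGB versus sham, Lgr5 turned to 0.16 by limma-voom and 0.13 in batch A, Tbx3 to -0.04 without the batch term and -0.20 in batch B, and Axin2 to -0.01 in batch B. Correlations with Axin2 turned for Lgr5 to 0.33 (batch A), 0.122 (without the 6 libraries apart) and 0.102 (without the 2 farthest), for Tbx3 to -0.0245 (batch B), for Nkd1 to -0.0462 (batch A) and -0.129 (without the 6), and for Dkk2 to -0.0946 (batch A). The causes were not tested.

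Counts over all genes in RYGB versus sham were 520, and 1576 by limma-voom, 931 in batch A, 24 in batch B and 924 without the 6 libraries apart. With the replicate block 368 genes were called, and 1 pericentral gene in place of 5. In RYGB versus BWM (212) limma-voom gave 830, batch A 586 and leaving out the 6 libraries 361. In RYGB versus Lean (647) limma-voom gave 1494, batch A 1705, no batch term 342 and leaving out the 6 libraries 1063. In Lean versus sham (102) limma-voom gave 180, no batch term 18 and only the groups compared 1. In the difference of effects (6) DESeq2 gave 36 and limma-voom 32. On the pairing, deviations of same-numbered livers correlated between -0.383 and 0.191, and in 3 of 12 pairs a liver was closest to its own number. BWM and Lean could not be fitted in batch B, nor PYY3-36 and liraglutide in batch A.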
